A study of Homo sapiens with 12 samples.

Results

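The comparison described here sets PC9 cells kept for 7 days in 1 µM erlotinib against the same cells without drug. It uses 6 of the 12 libraries of the study, taken by their labels: the 3 drug-tolerant libraries (DTC) and the 3 untreated wild-type libraries. All genes that passed a filter on low counts were compared, and the text turns on programs and gene families other than MAPK output, proliferation, interferon response and mesenchymal genes. PC9 is a human lung adenocarcinoma line whose growth depends on a mutant EGFR, and erlotinib blocks the EGFR kinase. All 6 libraries come from cells labelled wild type for TDP1, an enzyme that removes trapped topoisomerase 1 from DNA. The other libraries are 3 of wild-type cells held at the same erlotinib dose for 28 days and called drug-tolerant expanded (DTEC), which are used below as a later time point, and 3 of the untreated TDP1 knockout line KO2, which enter the estimate of spread and no comparison. Cells grew in RPMI-1640 with fetal bovine serum. The cells are a subclonal line, and the design splits 1 flask into the cultures of a group and keeps them apart from then on, so p-values measure the spread between such cultures of 1 line.

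Cells that outlast an EGFR inhibitor for days do so at first without a new resistance mutation, slowly cycling or not cycling at all, and this reversible state is called drug tolerance. EGFR feeds the PI3K and mTOR pathways, which in growing cells drive glycolysis, lipid synthesis and ribosome assembly and hold back lysosome and autophagy genes and the FOXO transcription factors. NF-kB is a family of transcription factors that induces cytokines, survival genes and its own inhibitors, and it has been linked to survival of EGFR-mutant cells in the presence of such inhibitors.

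Libraries were made from polyadenylated RNA, they were strand-specific, and the deposited values were estimated counts per gene, with 25734578 to 38219562 per library over the 6. Levels are in CPM, a gene's count as a share of its library's total, after TMM scaling, which sets libraries on a common footing by their shared genes, and ± is the SD over 3 libraries. A gene was called when edgeR's quasi-likelihood test gave a Benjamini-Hochberg adjusted p under 0.05. All libraries carried the same batch label. Mitochondrially encoded genes, taken as all symbols starting MT-, took 2.60% ± 0.147 of counts in untreated cells and 5.02% ± 0.519 in DTC. The two-sided exact permutation p was 0.1, the smallest that 3 against 3 allows. This share is of unscaled counts and is not limited to the 13 protein genes described below. EPCAM and the simple epithelial keratins KRT7, KRT8, KRT18 and KRT19 were abundant in all 6 libraries, whereas NKX2-1, which defines lung adenocarcinoma lineage in many tumours, was under 1 CPM in each. The 10 lung epithelial markers summed to 11050.3 to 11658.7 CPM in untreated cells and 6641.8 to 7705.0 CPM in DTC, most of it KRT7, KRT8, KRT18 and KRT19. Of the 10, CLDN4, ELF3, NKX2-1 and NAPSA were called higher and EPCAM, KRT8, KRT18 and KRT19 lower. Of 12 leukocyte markers 8 were under 1 CPM in all 6 libraries, with CD3D, MS4A1, TYROBP and NKG7 at 0, and 5 were tested. Of these 5, CSF1R (0.627, 0.236 and 0.288 CPM untreated, 10.7, 7.74 and 10.2 CPM in DTC), ITGAM, CD68 and CD14 were called higher and LAPTM5 lower, and the list summed to 77.2 to 90.6 CPM in untreated cells and 81.1 to 109 CPM in DTC. Of 10 fibroblast markers 9 were under 1 CPM, with COL1A1 as the exception at 8.27, 7.79 and 8.83 CPM untreated and 56.0, 54.2 and 56.8 CPM in DTC. Of 10 endothelial markers 6 were under 1 CPM, with ERG and CLDN5 at 0. PECAM1 was called lower (35.2, 28.97 and 31.98 CPM untreated, 9.77, 7.62 and 8.91 CPM in DTC), VWF and ROBO4 were called higher (log2 fold change 3.64 and 4.32, both under 2 CPM), and CDH5 was not called. Of 10 neuroendocrine markers 7, and of 8 erythroid markers 8, were under 1 CPM in all 6. The neuroendocrine marker POU2F3 was called higher (0.179, 0.304 and 0.173 CPM untreated, 2.91, 2.56 and 1.88 CPM in DTC), and no other marker of these 2 lists was called. In bulk RNA, fewer cells of a kind and less RNA per cell cannot be told apart.

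DTC replicate 1 stood apart from the other DTC libraries. Each DTC library was placed on the axis from the untreated mean (0) to the mean of the other 2 DTC libraries (1), in log2 CPM over all tested genes. Replicate 1 lay at 0.883, replicate 2 at 1.01 and replicate 3 at 0.976. The 996 genes at least 2-fold lower in replicate 1 than in the mean of replicates 2 and 3 had a median exon length of 2051.5 bases and a GC content of 55.6%, against 4481 bases and 49.2% for all tested genes. The 238 genes at least 2-fold higher had 2552 bases and 46.9%. Across genes, its deviation from the DTC mean correlated with log2 exon length at 0.353 and with GC content at -0.289 (description only, as genes are not independent), while the untreated libraries gave -0.0190 to 0.0270 for length. By GC content untreated replicate 1 departed from its group about as far, at -0.299, with 0.254 and 0.0694 for untreated replicates 2 and 3. The change from untreated cells to DTC also varied with exon length. Over 5 equal bins of length, the median log2 fold change was 0.34 in the shortest bin and -0.11 in the longest. Without DTC replicate 1 these medians were 0.47 and -0.17, so leaving it out did not remove the difference. The cause of this difference was not tested.

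By list, the lowest median departures of replicate 1 from the mean of replicates 2 and 3 were those of cytosolic ribosomal proteins (-0.94 on the log2 scale) and respiratory chain subunits (-0.77). Ribosomal protein genes took 3.62% of counts in DTC replicate 1 and 7.24% and 5.97% in replicates 2 and 3. The coefficient of biological variation was 17.5% over the 6 libraries and 10.6% without replicate 1. Without it, 10998 of the 11520 called genes (95.5%) were called again with the same sign, and 12323 genes were called in all. The rest of the 11520 include genes that were no longer called. Where leaving it out moved a list's count of at least 2 by over 1.5 times, both counts are given.

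**Figure D1:**
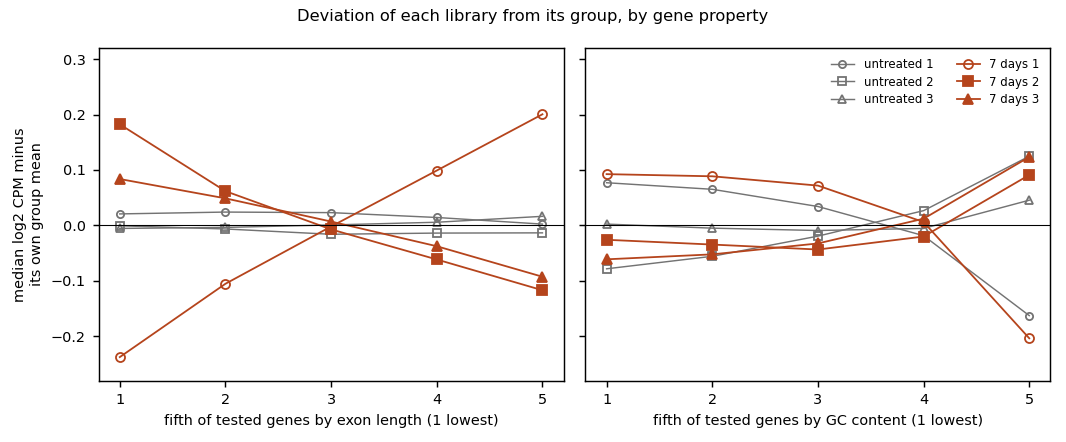
Median deviation (log2 CPM minus the mean of the library's own group) of genes in 5 equal bins of exon length (left) and GC content (right), from the lowest bin to the highest, for 3 untreated libraries (grey) and 3 libraries after 7 days of erlotinib (orange, replicate 1 open). Replicate 1 runs from -0.24 in the shortest bin to 0.20 in the longest in length, and replicates 2 and 3 run the other way. The 3 deviations of a group sum to 0 by construction.

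The fit covered 17115 genes. After 7 days 5818 of them (34.0%) were higher and 5702 (33.3%) lower by the test. Without DTC replicate 1, 36.7% of 17601 tested genes were called higher and 33.3% lower. With most genes called, the counts below are to be read against these shares and those by untreated level. A list near them is not set apart. The median log2 fold change over all genes was 0.06, with quartiles at -0.63 and 0.94. The calls are also given by the level in untreated cells, as a description only: a gene near 0 there had to be higher in another group to pass the filter on low counts, and had little room to fall. Among 4058 genes under 1 CPM, 55.5% were called higher and 2.91% lower. Among 3574 genes from 1 to 10 CPM, 48.1% were called higher and 15.9% lower. Among 9483 genes at 10 CPM or more, 19.5% were called higher and 52.9% lower. Lists of abundant genes, and counts over members present in untreated cells, are also to be read against these levels. For cytosolic ribosomal proteins 48.1% were called lower and 0% higher, and for proteasome subunits 56.8% and 8.11%. Long intergenic RNAs (47.1% higher, 9.30% lower) and antisense RNAs (48.4% and 7.12%) had more genes called higher than lower, while protein-coding genes split into 32.05% higher and 39.06% lower.

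Scaling matters for direction. With total counts alone the median of all genes moved up by 0.35 and with the upper quartile by 0.29, and 68.4% and 65.0% of calls were then higher, against 50.5% with TMM. Higher and lower are meant below against the TMM scale, and a pair of counts in brackets gives the members called higher and then lower under another setting. The medians of respiratory chain subunits, ATF4 targets, Wnt genes, small nucleolar RNA host genes, solute carriers, ABC transporters, aldehyde dehydrogenases with aldo-keto reductases, GalNAc transferases with sialyltransferases, HOX genes and MAGE genes changed sign under both, and that of Notch genes with total counts alone.

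**Figure D2:**
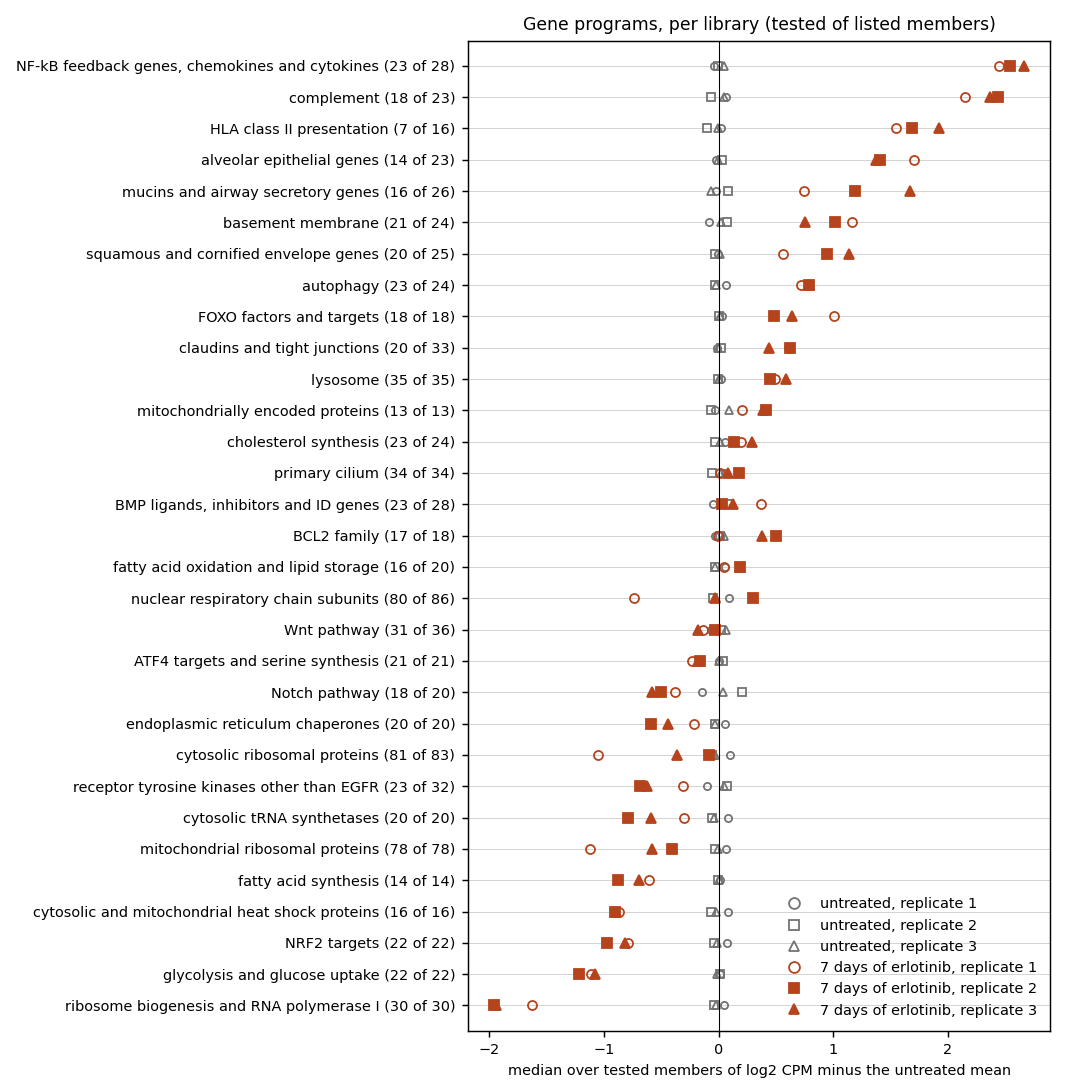
Median over the tested members of 31 gene programs of log2 CPM minus the untreated mean, in each of the 3 untreated libraries (grey) and the 3 libraries after 7 days of erlotinib (orange, replicate 1 open). For ribosome biogenesis the DTC medians are -1.63, -1.95 and -1.94, and for the NF-kB list 2.44, 2.54 and 2.66, with the untreated libraries near 0.

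Among genes with a mean of at least 10 CPM, those with the largest rises included 6 that are described here. MYL9 (chr20:36541484-36551447, GRCh38), a myosin regulatory light chain, was at 0.329, 0.337 and 0.231 CPM in untreated replicates 1 to 3 and at 71.7, 78.1 and 82.5 CPM in DTC (log2 change 8.01 with SE 0.21, adjusted p = 8.3e-12). OLR1 (chr12:10158301-10172138), a scavenger receptor for oxidised LDL, went from 0.866, 1.21 and 2.25 to 409.7, 304 and 326 CPM (log2 change 7.89 with SE 0.36, adjusted p = 1.4e-09). TRAF1 (chr9:120902393-120929173), an adaptor of TNF receptors, went from 0.209, 0.438 and 0.144 to 51.7, 39.4 and 44.4 CPM (log2 change 7.44 with SE 0.42, adjusted p = 7.4e-09). In each of these 3 every DTC library was above every untreated one, and DTC replicate 1 was the lowest DTC library for MYL9 and the highest for OLR1 and TRAF1. ATG9B, a membrane protein of autophagy, rose from 0.241 ± 0.173 to 33.1 ± 10.95 CPM, and the long intergenic RNA LINC01133 from 0.113 ± 0.0227 to 27.7 ± 7.48 CPM; in both, DTC replicate 1 was the lowest of the DTC libraries. The sixth, IL32, is described with the NF-kB genes.

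The largest falls at that level included COL13A1 (chr10:69801867-69964275), a transmembrane collagen, at 36.6, 39.0 and 37.7 CPM in untreated cells and 1.99, 1.41 and 0.704 CPM in DTC (log2 change -4.80 with SE 0.25, adjusted p = 1.5e-09). PADI3 (chr1:17249098-17284233), a peptidylarginine deiminase of hair and skin, went from 21.7, 21.8 and 20.6 to 1.22, 0.648 and 0.821 CPM (log2 change -4.59 with SE 0.22, adjusted p = 5.8e-10). TRIB2 (chr2:12716889-12742734), a pseudokinase, went from 72.4, 69.9 and 71.9 to 6.69, 6.71 and 4.16 CPM (log2 change -3.61 with SE 0.16, adjusted p = 2.8e-10). None of these groups overlapped. HMGA2, a chromatin architectural protein, fell from 426 ± 8.27 to 36.6 ± 7.93 CPM, SOX7, a transcription factor, from 47.3 ± 3.36 to 3.56 ± 0.312 CPM, and AKR1B10, an aldo-keto reductase, from 1405 ± 79.9 to 125 ± 4.46 CPM. Of the 6 deposited values compared, 3 were whole for HMGA2, 3 for SOX7 and 1 for AKR1B10, so part of their reads may belong to other features.

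Genes induced by NF-kB, including its own inhibitors, chemokines and cytokines, rose. Of the 23 tested of 28 listed members, 20 were called higher and 0 lower, with a median log2 fold change of 2.62 against 0.06 for all genes. CXCL3, CXCL5, CCL20, CX3CL1 and CSF2 did not pass the filter. Members silent in untreated cells could pass it only through another of the 4 groups, so a count over members already present is also given: of the 12 members with an untreated mean of at least 1 CPM, 9 were called higher and 0 lower. In addition, 5 tested members were at or below 3 counts in every untreated library, and with those at their lower bound the median was 2.29.

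The RefSeq promoters (GRCh38.p14) of several members are shown because they carry a short NF-kB motif (3 G, any 2 bases, 3 T, 2 C), given here by name and searched on both strands in 250 bases before and 50 after the start. Each is written 5′ to 3′ on the gene's strand with 20 bases on each side of the motif, which is in capitals; in LTB and BIRC3 the motif reads on the opposite strand.
IL32: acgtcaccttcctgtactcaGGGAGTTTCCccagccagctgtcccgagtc
LTB: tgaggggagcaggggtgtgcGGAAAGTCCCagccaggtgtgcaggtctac
BIRC3: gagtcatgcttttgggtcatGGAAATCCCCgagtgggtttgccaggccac
IL6: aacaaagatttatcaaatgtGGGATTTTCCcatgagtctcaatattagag
CXCL1: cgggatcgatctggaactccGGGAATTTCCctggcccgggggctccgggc
NFKBIZ: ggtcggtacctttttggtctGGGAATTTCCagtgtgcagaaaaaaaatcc
They lie at chr16:3065284-3065333 (plus strand), chr6:31582482-31582531 (minus), chr11:102317265-102317314 (plus), chr7:22727107-22727156 (plus), chr4:73869294-73869343 (plus) and chr3:101827747-101827796 (plus). Of the 22 list members with a promoter in the table, 14 (63.6%) held the motif, against 671 of 35116 promoters (1.91%) in all. Of the 14, 10 were called higher and 3 were not tested. Of all 22, 16 were called higher, so members without the motif were called higher too. NFKB1 held it and was not called (log2 change -0.30 with SE 0.15, adjusted p = 0.093). A match describes letters in a window and not use of a site, and many of the list's genes are textbook NF-kB targets.

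Of the inhibitors and transcription factors, TNFAIP3, a deubiquitinase that shuts the pathway off, was at 47.2, 50.6 and 55.1 CPM in untreated cells and 187, 143 and 148 CPM in DTC (log2 fold change 1.65, SE 0.13, adjusted p = 8.7e-08). NFKBIA, the main cytosolic inhibitor, rose from 24.8 to 39.4 CPM, and NFKBIZ, a nuclear co-activator, from 2.90 to 14.9 CPM. RELB and NFKB2, the factors of the non-canonical arm, rose from 5.67 to 34.9 CPM and from 17.4 to 58.2 CPM. BIRC3 (chr11:102317450-102339403), an inhibitor of cell death that binds TRAF proteins, was at 7.65, 5.56 and 7.18 CPM and then 207, 164 and 161 CPM (log2 change 4.70 with SE 0.21, adjusted p = 4.6e-10). ICAM1, the adhesion receptor of leukocytes, went from 37.4, 40.5 and 39.0 to 447, 328 and 384 CPM (log2 fold change 3.31). For TNFAIP3, BIRC3 and ICAM1 the lowest DTC library was above the highest untreated one.

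Among secreted members, IL32 (chr16:3065297-3082192), a pro-inflammatory cytokine, was at 0.717, 0.776 and 1.01 CPM in untreated cells and 179, 237 and 214 CPM in DTC (log2 change 7.96 with SE 0.27, adjusted p = 4.9e-11). IL6 (chr7:22725884-22732002) went from 0.627, 0.135 and 0.173 to 10.5, 18.4 and 15.5 CPM (log2 change 5.54 with SE 0.39, adjusted p = 2.5e-08). LTB, a lymphotoxin that engages the non-canonical arm, had no counts in untreated cells and 1.96, 3.65 and 3.11 CPM in DTC, at least 31.4-fold higher (floor of 3 counts per library). All 3 were separated between the groups, and in each DTC replicate 1 was the lowest DTC library. CXCL8, a neutrophil chemokine, rose from 0.637 to 17.8 CPM and CCL5, a T-cell chemokine, from 0.338 to 6.14 CPM. TNF itself was at 1.22, 1.74 and 1.44 CPM in DTC, at least 15.8-fold above untreated. LIF (70.0 and 65.2 CPM, adjusted p = 0.32) and TNFAIP2 (658 and 696 CPM, adjusted p = 0.44) were not called.

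Ligands and receptors of the TNF superfamily were split. Of the 21 tested of 32 listed members, 12 were called higher and 6 lower, with a median log2 fold change of 0.99. Of the 13 members with an untreated mean of at least 1 CPM, 4 were called higher and 6 lower. TNFRSF9 (4-1BB, a co-stimulatory receptor) was at 0.657, 0.304 and 0.173 CPM and then 22.8, 19.3 and 20.1 CPM (log2 change 5.76 with SE 0.41, adjusted p = 3.8e-08). The members called lower included the death receptors for TRAIL, TNFRSF10A (from 34.8 to 9.63 CPM) and TNFRSF10B (from 71.7 to 46.7 CPM), the decoy TNFRSF10D (from 51.1 to 10.7 CPM), and TNFRSF1A, the main TNF receptor (from 128 to 74.1 CPM). The ligand TRAIL itself, TNFSF10, rose from 0.136 to 1.15 CPM. Interleukin receptors split evenly, with 11 called higher and 11 lower of 31 tested of 43 (6 and 11 of the 23 with an untreated mean of at least 1 CPM). IL2RG, the common gamma chain, was at 0.0299, 0 and 0.115 CPM in untreated cells and 13.1, 7.48 and 10.7 CPM in DTC, and IL18R1, the IL-18 receptor, at 27.3, 24.6 and 27.7 CPM and then 3.58, 3.12 and 2.76 CPM. IL4R fell from 156 to 51.3 CPM and IL1RL1, the IL-33 receptor, from 138 to 25.3 CPM.

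**Figure D3:**
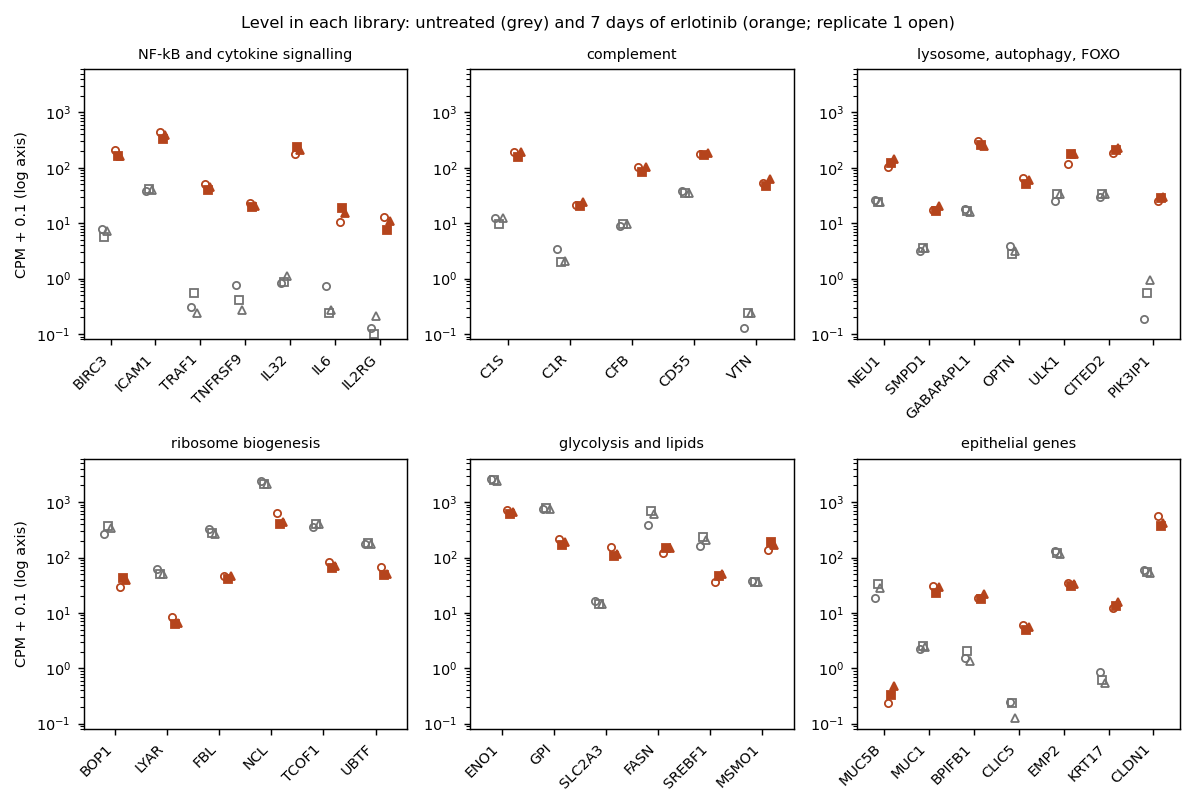
CPM plus 0.1 on a log axis for genes of 6 groups in each of the 3 untreated libraries (grey) and the 3 libraries after 7 days of erlotinib (orange, replicate 1 open). Each gene is a pair of point clouds. BIRC3 sits between 5.56 and 7.65 CPM untreated and between 161 and 207 CPM after 7 days, and BOP1 runs the other way.

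Complement genes rose without exception among those tested: 18 of the 18 tested of 23 listed were called higher (median 2.60), and 13 of the 13 with an untreated mean of at least 1 CPM. CFP, MASP1, C1QA, C1QB and C1QC did not pass the filter. C1S (chr12:6988259-7071032) and C1R, the proteases that start the classical pathway, were at 12.2, 9.58 and 12.4 and 3.26, 1.92 and 1.96 CPM in untreated cells and at 189, 158 and 196 and 21.5, 20.3 and 23.8 CPM in DTC. CFB, the protease of the alternative pathway, rose from 9.36 to 96.0 CPM (adjusted p = 4.3e-08; log2 fold change 3.36). C3, the central component, rose by less, from 180.2 to 297 CPM (adjusted p = 5.9e-04; log2 fold change 0.72). The inhibitors on the cell surface rose too: CD55 from 36.4 to 175 CPM, CD59 from 341 to 818 CPM and CD46 from 244 to 344 CPM. The near-identical pair C4A and C4B may share reads. CFD, called higher (from 1.51 to 13.5 CPM), was among the genes lowest in DTC replicate 1, at 3.82, 17.3 and 19.3 CPM over the DTC libraries.

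The presentation list for HLA class II had few tested members. Of 7 tested of 16 listed, 5 were called higher (1 and 0 of the 3 with an untreated mean of at least 1 CPM), and none of the chains HLA-DRA, HLA-DRB1, HLA-DPA1 or HLA-DQA1 passed the filter. CD74, the invariant chain, went from 0.332 to 3.35 CPM, HLA-DMA, which loads peptide, from 0.469 to 5.14 CPM, and CIITA, the master activator, from 0.296 to 1.12 CPM. The values stayed low. In the proteasome, 21 of 37 tested subunits were called lower (median -0.40), and 3 higher (7 and 20 without DTC replicate 1; 7 and 14 with total counts), and those called lower included PSMD2, a base subunit of the cap, from 1762 to 751 CPM. With TMM and all libraries, the 3 called higher were PSMB8, PSMB9 and PSMB10, the catalytic subunits of the immunoproteasome, which replace 3 standard subunits: PSMB9 rose from 1.43 to 21.3 CPM, PSMB8 from 34.9 to 69.8 CPM and PSMB10 from 11.9 to 22.5 CPM. The subunits they replace, PSMB6, PSMB5 and PSMB7, were called lower (from 237 to 140.4 CPM, from 143 to 102 CPM and from 225 to 183 CPM).

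Lysosome genes rose more often than genes overall. Of the 35 tested of 35 listed members, 23 were called higher and 3 lower, with a median log2 fold change of 0.50; 31 were called higher and 1 lower with scaling by total counts. The largest rises were CTSS, a cathepsin of antigen-presenting cells (from 0.491 to 16.1 CPM), SMPD1, acid sphingomyelinase (from 3.33 to 18.0 CPM), and NEU1, a sialidase, at 25.9, 24.3 and 24.0 CPM in untreated cells and 104, 120.1 and 142 CPM in DTC (2 of 6 values whole). Abundant members rose as well: PSAP, the saposin precursor, from 718 to 2269 CPM, CTSA, the protective protein of NEU1, from 136 to 351 CPM, and LAMP2, a membrane protein, from 259 to 458 CPM. LAMP1 (359.7 and 357 CPM, adjusted p = 0.91) and CTSD (283 and 260.0 CPM, adjusted p = 0.55) were not called, and CTSL fell from 172 to 79.0 CPM. TFEB, a transcription factor of lysosome genes, rose from 1.05 to 3.82 CPM, and its relative TFE3 was not called (adjusted p = 0.26).

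TFEB and TFE3 bind the CLEAR box, searched here as TCACGTGA, which reads the same on both strands. The windows of 2 called members are shown with the box in capitals, from RefSeq (GRCh38.p14).
CTSA: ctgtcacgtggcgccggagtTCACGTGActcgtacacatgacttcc
GAA: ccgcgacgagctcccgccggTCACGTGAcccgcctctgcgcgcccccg
They lie at chr20:45891289-45891334 and chr17:80101529-80101576, both on the plus strand, and GAA, acid alpha-glucosidase (from 29.7 to 61.8 CPM), held the box at a second place. Of 23 list members with a promoter in the table, 5 (21.7%) held it against 0.980% of all 35116 promoters. Of these 5, CTSA, GAA and ATP6V0D1 were called higher and LAMP1 and MCOLN1 were not called. Of all 23, 11 were called higher.

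For autophagy, of the 23 tested of 24 listed members, 16 were called higher and 4 lower, with a median log2 fold change of 0.84 (19 and 1 with total counts). GABARAPL1, an ATG8-family protein that coats autophagosomes, was at 18.0, 16.3 and 15.7 CPM in untreated cells and 307, 256 and 245 CPM in DTC (log2 change 4.01 with SE 0.18, adjusted p = 3.8e-10). MAP1LC3B, the best known ATG8 protein, rose from 43.9 to 139.6 CPM, and GABARAPL2 from 37.8 to 92.3 CPM. OPTN, a cargo receptor, went from 3.70, 2.63 and 3.09 to 65.0, 51.9 and 60.6 CPM (log2 change 4.23 with SE 0.18, adjusted p = 1.9e-10), ULK1, the kinase that starts the process, from 30.7 to 158 CPM, and WIPI1 from 6.13 to 43.8 CPM. The conjugation factors ATG16L1, ATG7 and ATG3 were called lower (from 107 to 44.2 CPM, from 53.3 to 40.4 CPM and from 75.8 to 62.1 CPM), while the conjugated protein ATG12 was called higher (from 41.2 to 58.5 CPM).

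FOXO transcription factors are held out of the nucleus by AKT, below EGFR. Of the 18 tested of 18 listed members, 11 were called higher and 2 lower, with a median log2 fold change of 0.77 (14 and 1 with total counts). PIK3IP1, an inhibitor of PI3K, was at 0.0896, 0.438 and 0.836 CPM and then 25.2, 28.8 and 29.03 CPM (log2 change 5.90 with SE 0.34, adjusted p = 6.6e-09). DEPP1, a FOXO-induced regulator of autophagy, was at 1.02, 0.843 and 0.894 CPM and then 23.9, 28.1 and 29.8 CPM (log2 change 4.88 with SE 0.15, adjusted p = 2.2e-11). CITED2, a transcriptional co-regulator, rose from 32.4 to 206 CPM, FBXO32, a ubiquitin ligase of muscle wasting, from 21.8 to 135 CPM, and CCNG2, a cyclin of resting cells, from 7.39 to 33.8 CPM. IRS2, the insulin receptor substrate, and FOXO3 itself were called lower (from 170.5 to 59.9 CPM and from 170.0 to 119 CPM). TXNIP, KLF9, BCL6 and SESN1 were not called (adjusted p = 0.093, 0.75, 0.76 and 0.15). The forkhead motif TGTTTAC was found on either strand in 3 of 16 members with a promoter (18.8%) and in 3.42% of all promoters. Of these 3, 2 were called higher and TXNIP was not called. Of all 16, 9 were called higher, so members without the motif were called higher too. The DEPP1 window (chr10:44978963-44979009, minus strand) is shown with the motif in capitals, as read on the opposite strand.
DEPP1: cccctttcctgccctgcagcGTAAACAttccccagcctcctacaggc

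Ribosome biogenesis fell as a block. All 30 listed genes were tested and all 30 were called lower, under TMM, total counts and upper quartile scaling alike, and 29 of them by at least 2-fold (median -1.83). BOP1, which matures the large subunit's RNA, was at 269.6, 369 and 346 CPM in untreated cells and 29.3, 41.9 and 38.6 CPM in DTC (log2 change -3.16 with SE 0.20, adjusted p = 1.1e-08). LYAR, a nucleolar protein, was at 61.2, 50.02 and 50.7 CPM and then 8.28, 6.12 and 6.39 CPM (log2 change -2.96 with SE 0.14, adjusted p = 6.6e-10). FBL, the methyltransferase of small nucleolar RNPs, was at 331, 278 and 269 CPM and then 46.0, 40.9 and 46.4 CPM (log2 change -2.72 with SE 0.11, adjusted p = 2.1e-10). The groups did not overlap in these 3 genes, and DTC replicate 1 was the lowest DTC library for BOP1 and the highest for LYAR. NCL, a major nucleolar protein, fell from 2203 to 492 CPM, UBTF, the factor of rDNA transcription, from 178 to 55.3 CPM, and RRN3, its polymerase I partner, by the least, from 113 to 65.3 CPM.

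The proteins of the ribosome itself moved less, and the size of the movement rested on single libraries. For the cytosolic ribosome, 39 of 81 tested genes were called lower and none higher (median -0.44). Without DTC replicate 1, 31 were called lower and 10 higher (median -0.18); without DTC replicate 2 60 and without untreated replicate 1 25 were called lower; with total counts 10 were. RPS2 was at 2537, 2697 and 2549 CPM untreated and 795, 1060.5 and 1039.7 CPM in DTC (log2 fold change -1.43, adjusted p = 4.2e-07) and RPL3 at 1849, 1756 and 1706 and 847, 844 and 947 CPM (log2 fold change -1.01, adjusted p = 6.9e-07). Neither had a whole value in the 6 libraries, and this family has many processed copies that can share reads. For the mitochondrial ribosome, 56 of 78 were called lower and 2 higher (median -0.66), 49 and 7 without DTC replicate 1, and 36 lower with total counts. MRPS2 fell from 161 to 41.4 CPM, MRPL12 from 92.8 to 31.1 CPM and MRPL19 from 147 to 49.4 CPM, whereas MRPL33 rose from 33.3 to 66.1 CPM.

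Other machinery of gene expression fell with it. Of 33 tested SR and hnRNP splicing factors, 30 were called lower and none higher (median -1.22): HNRNPM fell from 589.9 to 149.8 CPM, HNRNPA2B1 from 1605 to 502 CPM and SRSF1 from 487 to 173 CPM, while SRSF5, SRSF11 and HNRNPLL were not called (adjusted p = 0.21, 0.15 and 0.56). Of 20 cytosolic tRNA synthetases, 15 were called lower and 1 higher (median -0.56), but 7 lower and 4 higher with total counts. VARS1, for valine, fell from 253 to 79.5 CPM, FARSB, for phenylalanine, from 327 to 94.0 CPM, and CARS1, for cysteine, rose from 36.3 to 48.5 CPM. Small nucleolar RNA host genes were mixed, with 6 called higher and 7 lower of 26 (10 and 6 without DTC replicate 1; 11 and 4 with total counts): SNHG17 fell from 55.0 to 25.2 CPM and GAS5 rose from 112 to 179 CPM.

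Glycolysis genes fell. Of the 22 tested of 22 listed members, 3 were called higher and 18 lower, with a median log2 fold change of -1.05, and 16 were lower with total counts. ENO1 (chr1:8861000-8879250), enolase, was at 2605, 2462 and 2419.7 CPM in untreated cells and 732, 612 and 674 CPM in DTC (log2 change -1.89 with SE 0.11, adjusted p = 2.4e-09). GPI, the second enzyme of the pathway, fell from 760.2 to 193 CPM, GAPDH from 6329.9 to 1821 CPM, LDHA, which makes lactate, from 2745 to 949 CPM, and HK2, the hexokinase of growing cells, from 142 to 44.2 CPM. Of the glucose transporters, SLC2A1 fell from 234 to 148 CPM and SLC2A3 was at 16.6, 14.2 and 14.3 CPM untreated and 153, 106 and 114 CPM in DTC (log2 change 3.05 with SE 0.21, adjusted p = 2.2e-08; 1 of 6 values whole). The other members called higher were the isoenzymes ENO2 (from 2.42 to 4.38 CPM) and ALDOC (from 14.7 to 21.0 CPM).

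The branches of lipid synthesis moved apart. For fatty acids, 12 of 14 genes were called lower and none higher (median -0.68; 7 lower and 1 higher with total counts). SREBF1, the transcription factor of the branch, was at 161, 234 and 209 CPM and then 35.8, 46.5 and 50.1 CPM (log2 change -2.19 with SE 0.17, adjusted p = 4.6e-08). FASN, the synthase, was at 386, 687 and 611 CPM and then 120.3, 148 and 150.1 CPM (log2 change -2.01 with SE 0.22, adjusted p = 3.2e-06), and ELOVL6, an elongase, fell from 90.3 to 20.3 CPM. For cholesterol, 10 of 23 tested genes were called higher and 3 lower (median 0.21; 17 higher with total counts). MSMO1, a sterol oxidase, rose from 36.7 to 164 CPM (adjusted p = 1.9e-09; log2 fold change 2.16), HMGCS1 from 227 to 449.7 CPM and INSIG1, a feedback sensor, from 30.9 to 85.9 CPM. SREBF2, the factor of this branch, was not called (adjusted p = 0.78). The sterol element TCACNCCAC was in 1 of 18 matched promoters (5.56%), that of SREBF2, and in 1.13% of all.

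Fatty acid oxidation and lipid storage split, with 8 called higher and 7 lower of 16 tested of 20, and 8 higher and 0 lower with total counts; 4 were lower without untreated replicate 1 and 3 without DTC replicate 2. CPT1A, the entry step of mitochondria, fell from 97.4 to 78.1 CPM. Of the 13 mitochondrially encoded genes, 6 were called higher and none lower (median 0.34), 13 with total counts and 11 without DTC replicate 1. MT-CO1 was at 6078, 5874 and 6526 CPM in untreated cells and 8118, 9953 and 9571 CPM in DTC, and MT-ND5 at 803, 971 and 1138 and 1824, 1967 and 2201 CPM (log2 fold change 1.04, adjusted p = 2.7e-05). Among 80 tested nuclear subunits of the respiratory chain, 9 were called higher and 29 lower, but 33 and 23 without DTC replicate 1 and 24 and 16 with total counts, and 4 higher without DTC replicate 2. CYC1, cytochrome c1, fell from 346 to 122 CPM, NDUFS6 from 108 to 48.4 CPM, and COX6C rose from 76.6 to 125 CPM. The list's median was -0.05, 0.30 with total counts and 0.16 without DTC replicate 1.

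Targets of NRF2, the factor of oxidative stress, fell: 15 of 22 were called lower and 1 higher (median -0.90; 12 lower and 3 higher with total counts). AKR1B10 (chr7:134527592-134541408) was at 1496, 1348 and 1371 CPM in untreated cells and 122, 130.2 and 124 CPM in DTC (log2 change -3.49 with SE 0.10, adjusted p = 9.9e-12). ABCC2, an efflux pump, fell from 172 to 30.0 CPM, SRXN1, sulfiredoxin, from 353 to 114 CPM, and NQO1, a quinone reductase, from 804 to 409 CPM. HMOX1, haem oxygenase, was the member called higher (from 40.9 to 50.3 CPM), and TXN, FTL and FTH1 were not called (adjusted p = 0.3, 0.12 and 0.49).

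Other detoxifying families did not follow one direction. Of 26 tested of 55 cytochrome P450 genes, 18 were called higher and 3 lower, and of the 18 members with an untreated mean of at least 1 CPM, 12 were called higher and 3 lower. CYP1B1, which oxidises oestrogens and aromatic carcinogens, rose from 361 to 1207 CPM and CYP1A1 from 1.64 to 11.4 CPM, both being targets of the aryl hydrocarbon receptor. CYP4B1 was at least 38.1-fold higher (3.08, 3.41 and 4.08 CPM in DTC), and CYP27C1 fell from 43.7 to 7.47 CPM. Of 14 UGT and GST enzymes, 7 were called higher and 2 lower. GSTM4 rose from 22.2 to 179 CPM, GSTM3 from 102 to 498 CPM and GSTM2 from 0.182 to 25.8 CPM, but GSTM genes are near copies and 2 of 6 values of GSTM2 were whole. UGT1A10, 1 of several first exons of a shared locus, fell from 4.32 to 0.215 CPM. Aldehyde dehydrogenases and aldo-keto reductases split, with 9 called higher and 9 lower of 24 (12 and 5 with total counts): ALDH3A2 fell from 424 to 171 CPM and ALDH1A2, a retinoic acid synthase, rose from 0.137 to 1.98 CPM. Of 3 tested of 11 metallothioneins, MT1X (from 3.62 to 7.22 CPM) and MT1F (from 0.201 to 1.73 CPM) were called higher and MT2A lower (from 50.9 to 34.0 CPM), and MT2A was not called with total counts or upper quartile scaling.

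Stress pathways split within themselves. For ATF4 targets, of the 21 tested of 21 listed members, 8 were called higher and 10 lower, with a median log2 fold change of -0.24; 9 were called higher and 3 lower with scaling by total counts. ATF3, a stress-induced factor, was at 1.82, 2.02 and 1.62 CPM in untreated cells and 38.6, 45.9 and 47.0 CPM in DTC (log2 change 4.59 with SE 0.25, adjusted p = 2.3e-09). CHAC1, a glutathione-degrading enzyme, rose from 2.12 to 12.3 CPM, ASNS, asparagine synthetase, from 21.3 to 72.9 CPM (0 of 6 values whole), and DDIT3 (CHOP) from 8.0 to 25.1 CPM. The serine synthesis enzymes PHGDH, PSAT1 and PSPH were called lower (from 185 to 137 CPM, from 173 to 125 CPM and from 138 to 101 CPM), as was the cystine carrier SLC7A11 (from 313 to 137 CPM). The amino acid response element TGATGNAAT was in 0 of 18 matched promoters and in 0.991% of all, which says only that these letters are not in the windows.

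Of 20 endoplasmic reticulum chaperones, 2 were called higher and 13 lower (median -0.43), and 5 were called higher and 6 lower with scaling by total counts. HSPA5 (BiP) fell from 1224 to 723 CPM, while DNAJB9, a co-chaperone of BiP, rose from 10.2 to 49.4 CPM and HERPUD1, a degradation adaptor, from 24.6 to 93.8 CPM. Of 16 heat shock proteins, 2 were called higher and 13 lower (median -0.84). HSP90AA1 fell from 8936 to 3211 CPM, HSP90AB1 from 4482 to 1234.1 CPM, and HSPD1, the chaperonin of mitochondria, from 1827 to 519.9 CPM. The 2 called higher were small heat shock proteins: CRYAB at 0.119, 0 and 0.115 CPM and then 5.64, 7.33 and 8.74 CPM, and HSPB8 from 2.20 to 37.1 CPM. In the BCL2 family 7 were called higher, 4 lower and 6 not called of 17 tested (median 0.08). Of the 15 with an untreated mean of at least 1 CPM, 6 were called higher and 4 lower. All 6 of BMF (from 3.59 to 39.0 CPM), BBC3 (from 1.62 to 7.27 CPM), PMAIP1 (from 17.0 to 42.5 CPM), HRK (from 3.06 to 7.44 CPM), BIK (from 2.33 to 4.67 CPM) and BCL2L11, known as BIM (from 34.4 to 54.1 CPM), are death-promoting BH3-only genes and were called higher. The survival genes BCL2 (from 18.0 to 4.69 CPM), BCL2L1 (from 205 to 101 CPM) and MCL1 (from 172 to 141 CPM) were called lower, and so was BAX, a death effector (from 119.9 to 61.1 CPM). The remaining member called higher had an untreated mean under 1 CPM and is not named here. BID and BAD, also BH3-only genes of the list, were not among the 6 named above or the 4 called lower.

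**Figure D4:**
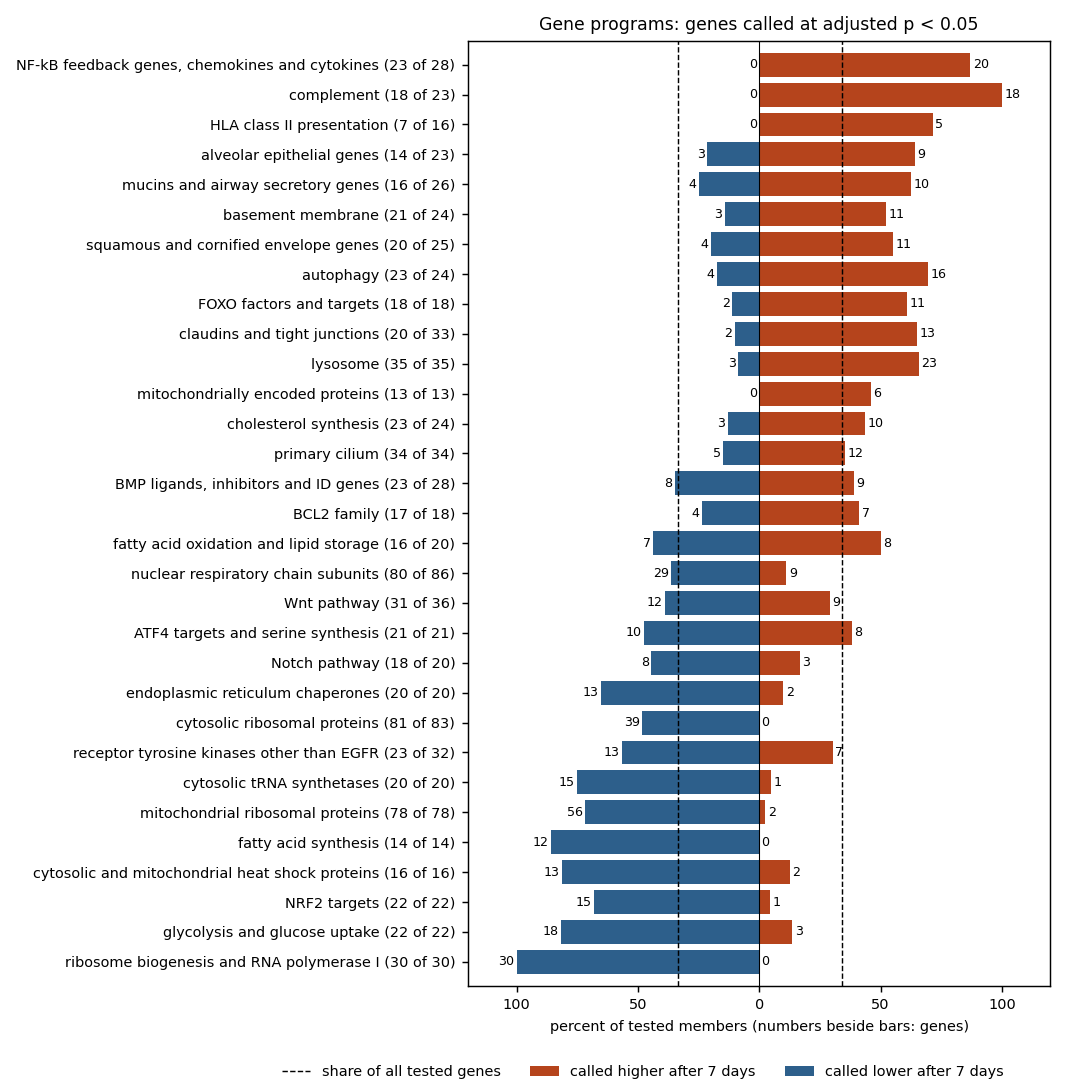
Share of tested members called higher (orange, right) and lower (blue, left) after 7 days in 31 gene programs, with gene counts beside the bars and dashed lines at the shares of all tested genes, 34.0% and 33.3%. Complement (18 higher, 0 lower) and ribosome biogenesis (0 higher, 30 lower) are the ends of the range, and the Wnt and BMP lists lie near the dashed lines.

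Genes of the airway epithelium moved in both directions. Of the 16 tested of 26 listed members, 10 were called higher and 4 lower, with a median log2 fold change of 1.42; of the 13 members with an untreated mean of at least 1 CPM, 9 were called higher and 4 lower. The membrane mucins rose: MUC1 at 2.09, 2.39 and 2.28 CPM in untreated cells and 30.5, 23.1 and 28.8 CPM in DTC (log2 change 3.61 with SE 0.13, adjusted p = 7.1e-11), MUC4 from 6.49 to 52.2 CPM, MUC16 from 3.23 to 37.8 CPM and MUC20 from 7.13 to 74.5 CPM. SLPI, a protease inhibitor of airway fluid, rose from 143 to 369.7 CPM, and BPIFB1, a secreted defence protein, from 1.55 to 19.7 CPM. The gel-forming mucin MUC5B fell from 26.2 to 0.251 CPM, and DMBT1, a mucosal scavenger receptor (from 3.50 to 0.162 CPM), and SPDEF, a factor of goblet cells (from 7.44 to 1.59 CPM), were lower with it. MUC2, MUC5AC and SCGB1A1 did not pass the filter.

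Of 14 tested of 23 alveolar genes, 9 were called higher and 3 lower, but of the 8 members with an untreated mean of at least 1 CPM, 3 were called higher and 3 lower, so most of the rises are of genes near silence in untreated cells. CLIC5, of type 1 cells, was at 0.149, 0.135 and 0.0288 CPM and then 5.98, 4.74 and 5.54 CPM, and HOPX, another type 1 gene, rose from 0.222 to 1.98 CPM. EMP2, a membrane protein of type 1 cells, was at 133, 119 and 116 CPM and then 34.8, 30.1 and 33.3 CPM (log2 change -1.90 with SE 0.09, adjusted p = 7.5e-10; 0 of 6 values whole). LPCAT1, a surfactant lipid enzyme, fell from 287 to 83.9 CPM, SFTPB from 1.51 to 0.0699 CPM, and SFTPC, AQP5 and PDPN were not tested. Squamous and cornified envelope genes split into 11 called higher and 4 lower of 20 tested (4 and 4 of the 12 with an untreated mean of at least 1 CPM). TP63, their transcription factor, went from 0.578 to 4.50 CPM, KRT17, a keratin of activated epithelium, was at 0.747, 0.506 and 0.433 CPM and then 12.3, 13.3 and 15.4 CPM, and KRT16 rose from 17.4 to 108 CPM. KRT5, of basal cells, fell from 148 to 69.9 CPM, and KRT6A and KRT6B, near copies that can share reads, from 22.1 to 12.2 CPM and from 74.95 to 29.2 CPM. Over the whole keratin family 11 were called higher and 8 lower of 28 tested (5 and 8 of the 18 with an untreated mean of at least 1 CPM).

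Tight junction genes rose more often than fell (13 higher and 2 lower of 20 tested of 33, 18 and 1 with total counts; of the 16 members with an untreated mean of at least 1 CPM, 10 were called higher and 1 lower). CLDN1, a sealing claudin, was at 59.1, 53.6 and 52.1 CPM in untreated cells and 553, 377 and 417 CPM in DTC (log2 change 3.03 with SE 0.18, adjusted p = 6.1e-09). CLDN4 rose from 156 to 234 CPM, CLDN7 was not called (adjusted p = 0.098), and CLDN2, a channel-forming claudin, fell from 0.826 to 0.0195 CPM. Of 14 tested S100 genes, 2 were called higher and 7 lower (5 and 6 without DTC replicate 1; 4 higher without untreated replicate 1; 5 and 5 with total counts). S100A9, a subunit of calprotectin, was at 487, 521 and 522 CPM and then 55.4, 147 and 118 CPM (log2 change -2.26 with SE 0.27, adjusted p = 9.7e-06), and its partner S100A8 fell from 4.89 to 2.90 CPM. Of 5 tested CEACAM adhesion genes, CEACAM6 (from 1307 to 568 CPM) and CEACAM5 (from 6.57 to 3.17 CPM) were called lower and CEACAM1 (from 0.659 to 5.33 CPM), CEACAM19 (from 8.04 to 30.7 CPM) and CEACAM20 higher. Of 16 serpins, 7 were called higher and 4 lower (10 and 2 with total counts; 4 and 4 of the 13 with an untreated mean of at least 1 CPM). SERPINB7 rose from 2.503 to 55.1 CPM, and SERPINE2 fell from 613 to 224 CPM.

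Basement membrane genes changed by chain. Of the 21 tested of 24 listed members, 11 were called higher and 3 lower, with a median log2 fold change of 1.19. COL4A3, COL4A4 and COL4A5, which form 1 kind of collagen IV found in alveolar and kidney basement membranes, rose from 0.216 to 5.18 CPM, from 1.17 to 14.2 CPM and from 28.99 to 146 CPM, while COL4A1 of the common kind fell from 23.1 to 12.2 CPM and COL4A2 was not called (adjusted p = 0.78). COL17A1, of hemidesmosomes, rose from 3.39 to 33.0 CPM. LAMA3, a laminin alpha chain, was at 229, 229.6 and 233 CPM untreated and 551, 239 and 296 CPM in DTC, with replicate 1 far above the rest; its log2 fold change was 0.65 (adjusted p = 0.021) and 0.25 without replicate 1 (adjusted p = 0.037).

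Among 19 tested integrins, 11 were called higher and 6 lower. ITGA6 (chr2:172427354-172506282), a laminin receptor, was at 1336, 1186 and 1245 CPM in untreated cells and 186, 95.8 and 106 CPM in DTC (log2 change -3.28 with SE 0.21, adjusted p = 1.6e-08), and its partner ITGB4 fell from 136 to 82.0 CPM; ITGA3, another laminin receptor, fell from 894 to 276 CPM. ITGAV rose from 99.1 to 364 CPM with its partners ITGB3 (from 6.15 to 50.3 CPM), ITGB6 (from 71.2 to 272 CPM) and ITGB8 (from 11.98 to 46.8 CPM), but ITGB5, another partner, fell from 265 to 86.5 CPM. ITGAX, ITGAM and ITGB2, which are mainly leukocyte integrins, rose to 2.31, 10.4 and 31.2 CPM, and of the 12 leukocyte markers listed above, ITGAM among them, 4 were called higher and 1 lower; the part of that list in this result was not tested. Of 27 ADAM and ADAMTS proteases, 12 were called higher and 3 lower (19 and 2 with total counts), but of the 17 members with an untreated mean of at least 1 CPM, 6 were called higher and 3 lower; ADAMTS14 rose from 0.764 to 12.1 CPM and ADAM17, a sheddase of EGFR ligands, fell from 172 to 105 CPM. Of 25 semaphorins and plexins, 14 were called higher and 8 lower, with SEMA3A, a guidance cue, from 0.187 to 4.80 CPM and PLXNA1, a receptor, from 272 to 63.9 CPM. Of 16 ephrins and Eph receptors, 4 were called higher and 9 lower (7 and 7 with total counts): EPHA2 fell from 136 to 30.0 CPM and its ligand EFNA1 rose from 10.5 to 48.0 CPM. Of 14 tested of 64 protocadherins, 8 were called higher and 2 lower (2 and 1 of the 4 with an untreated mean of at least 1 CPM; 5 higher without untreated replicate 2); PCDH7 rose from 40.1 to 103 CPM and PCDH1 fell from 196 to 96.5 CPM.

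EGFR itself fell from 1501 to 612 CPM (adjusted p = 3.9e-05; log2 fold change -1.29). Among 23 tested of 32 other receptor tyrosine kinases, 7 were called higher and 13 lower (median -0.56), and 9 were called higher and 10 lower with scaling by total counts. ROR1, a Wnt5a receptor, was at 76.2, 74.7 and 82.3 CPM in untreated cells and 19.4, 10.2 and 12.6 CPM in DTC (log2 change -2.47 with SE 0.18, adjusted p = 3.8e-08). AXL and MET, known bypass receptors in this disease, fell from 53.1 to 22.0 CPM and from 214 to 106 CPM. ERBB2 and ERBB3, partners of EGFR, rose from 69.3 to 99.2 CPM and from 72.4 to 111 CPM, FGFR3 rose from 0.998 to 4.56 CPM, and ROS1 was at least 26.2-fold higher, at 2.94, 2.21 and 2.11 CPM in DTC. IGF1R fell from 76.0 to 51.7 CPM and INSR rose from 8.36 to 14.7 CPM.

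Developmental pathways were mixed. Of 18 Notch genes, 3 were called higher and 8 lower (4 and 5 with total counts): the receptors NOTCH1 and NOTCH3 fell from 46.0 to 19.6 CPM and from 251 to 88.7 CPM, the ligand JAG1 from 112 to 40.0 CPM, and the feedback target NRARP from 19.9 to 4.77 CPM, while HES2 rose from 0.540 to 13.0 CPM (2 of 6 values whole) and HES4 from 1.93 to 6.06 CPM, a call that was lost without untreated replicate 1, DTC replicate 2 or DTC replicate 3. Of 31 Wnt genes, 9 were called higher and 12 lower (2 and 12 of the 24 with an untreated mean of at least 1 CPM). The secreted inhibitor SFRP1 was at 215, 197 and 199 CPM and then 43.2, 32.1 and 35.1 CPM, while the inhibitor DKK1 rose from 35.8 to 185 CPM. WNT4 rose from 0.942 to 13.6 CPM, AXIN2, a feedback target, from 1.77 to 7.06 CPM, and RNF43, a feedback ligase, from 0.0769 to 4.20 CPM, whereas ZNRF3, its relative, fell from 42.7 to 11.1 CPM. Of 23 BMP genes, 9 were called higher and 8 lower (11 and 5 with total counts; 6 and 8 of the 17 with an untreated mean of at least 1 CPM). ID3 rose from 12.4 to 61.8 CPM and ID1, a fellow target of BMP signalling, fell from 26.2 to 7.97 CPM. NOG, an inhibitor, fell from 22.0 to 3.26 CPM, and BAMBI, a decoy receptor, rose from 4.67 to 19.3 CPM. In the primary cilium list, 12 were called higher and 5 lower of 34 tested (16 and 8 without DTC replicate 1, 17 and 3 with total counts). The share called higher, 35.3%, was near the 34.0% of all genes. BBS4 of the BBSome (from 8.51 to 20.4 CPM) and the chaperonin-like BBS12 (from 3.53 to 9.77 CPM) are examples that rose. The members called lower are not named here.

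Replication-dependent histone genes were higher in polyadenylated RNA. Of 24 tested of 64, 23 were called higher and none lower (median 3.13, and 2.88 with 2 members at their bound), and 4 of the 4 with an untreated mean of at least 1 CPM. As background, their main transcripts end in a stem-loop without a poly(A) tail and are poorly captured by poly(A) selection. H2AC6 was at 1.49, 1.45 and 1.36 CPM in untreated cells and 37.8, 70.6 and 60.5 CPM in DTC, H4C8 at 0.418, 0.371 and 0.144 and 14.9, 17.8 and 15.4 CPM, and H2BC12 at 14.7, 17.3 and 16.1 and 53.8, 68.6 and 73.7 CPM. In each of these 3 the groups were separate.

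Numbered long intergenic RNAs rose more often than fell: of 345 tested of 2264, 170 were called higher and 29 lower (median 0.91), and of the 135 members with an untreated mean of at least 1 CPM, 60 were called higher and 22 lower. Their share is close to the 55.5% and 48.1% called higher among all genes under 1 CPM and from 1 to 10 CPM. The 445 tested numbered zinc finger genes lay near the background, with 158 called higher and 124 lower (232 and 62 with total counts, where all genes moved too), and so did 241 solute carriers (86 and 94; 114 and 56 with total counts), 32 ABC transporters (11 and 13) and 38 potassium channels (15 and 15; 5 and 12 of the 18 with an untreated mean of at least 1 CPM; 9 lower without untreated replicate 2). Among these, the sodium-proton exchanger SLC9A9 was at least 34.2-fold higher, ABCA5, a lipid transporter, rose from 1.44 to 19.2 CPM, the cholesterol exporter ABCA1 fell from 98.3 to 29.2 CPM and the potassium channel KCNK5 fell from 35.5 to 7.45 CPM.

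Of 49 tripartite motif genes, 22 were called higher and 14 lower (30 and 8 with total counts); TRIM28, the co-repressor of KRAB zinc finger proteins, fell from 519 to 166 CPM, and TRIM22, an antiviral gene, rose from 0.222 to 3.48 CPM (0 of 6 values whole). Of 52 RAB GTPases of membrane traffic, 23 were called higher and 14 lower (27 and 5 with total counts), with RAB5B from 65.7 to 201 CPM, RAB13 from 38.2 to 112 CPM and RAB31 from 175 to 59.2 CPM. Of 26 enzymes that start or sialylate glycans, 3 were called higher and 10 lower (with total counts 8 higher and 7 lower, and 5 higher without DTC replicate 2): GALNT10 fell from 326 to 109 CPM and ST6GAL1 rose from 39.1 to 54.8 CPM. HOX genes gave 5 higher and 9 lower of 21, with HOXA3 falling from 35.9 to 10.7 CPM and HOXB6 rising from 2.40 to 5.46 CPM (0 of 6 values whole). In the MAGE family, 5 were called higher and 6 lower of 13 (5 and 1 with total counts): the ubiquitous MAGED1 and MAGED2 rose from 52.7 to 208 CPM and from 39.9 to 189 CPM, and the cancer-testis gene MAGEA4 fell from 301 to 181 CPM.

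**Figure D5:**
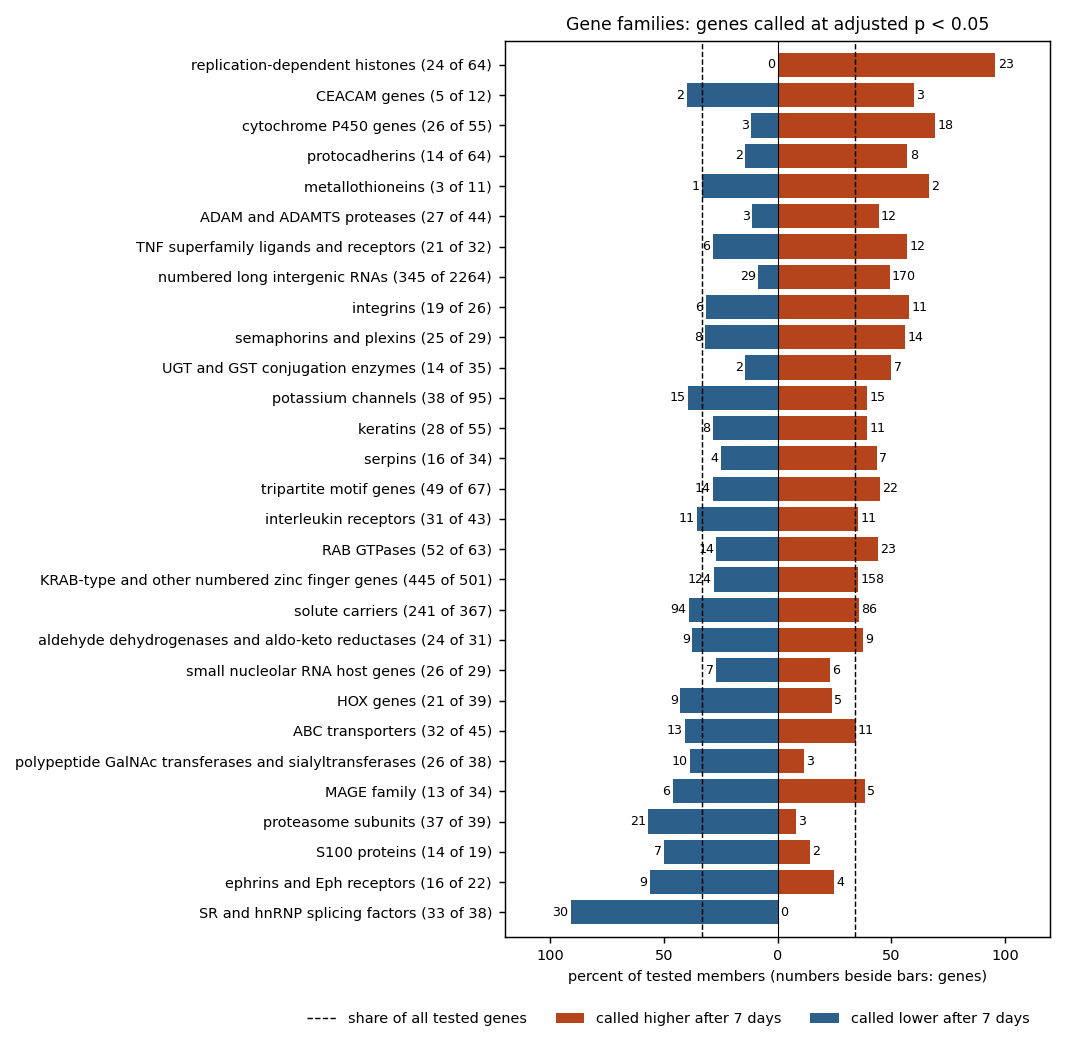
Share of tested members called higher (orange, right) and lower (blue, left) after 7 days in 29 gene families, with gene counts beside the bars and dashed lines at the shares of all tested genes, 34.0% and 33.3%. Histones (23 higher, 0 lower) and splicing factors (0 higher, 30 lower) are the ends of the range, and zinc finger genes and solute carriers sit near the dashed lines.

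After 28 days in the drug many of these levels lay between the untreated and the 7-day level or beyond the untreated one. The test of that difference is DTEC against DTC, with 28.8% of genes higher and 26.6% lower by the test. Some lists did not move back as a whole. Proteasome subunits gave 1 higher and 21 lower of 37 (median against untreated -0.40 at 7 days, -0.79 at 28 days). Respiratory chain subunits gave 11 higher and 25 lower of 80 (-0.05 and -0.43). Heat shock proteins gave 4 and 4 of 16 (-0.84 and -0.95), and mitochondrial ribosomal proteins 24 and 14 of 78 (-0.66 and -0.65). Ribosome biogenesis gave 30 higher and 0 lower of 30, splicing factors 26 higher and 0 lower of 33, tRNA synthetases 18 higher and 0 lower of 20, fatty acid synthesis 13 higher and 0 lower of 14, glycolysis 14 higher and 1 lower of 22 and NRF2 targets 17 higher and 2 lower of 22. In the other direction, histones gave 0 higher and 23 lower of 24, the NF-kB list 2 higher and 18 lower of 23, mitochondrially encoded genes 0 higher and 12 lower of 13, squamous genes 4 higher and 15 lower of 20, basement membrane genes 2 higher and 13 lower of 21 and lysosome genes 5 higher and 16 lower of 35. The medians against untreated cells, which share the same controls, were -1.83 at 7 days and -0.92 at 28 days for ribosome biogenesis, 2.62 and 0.67 for the NF-kB list, 0.50 and 0.54 for lysosome genes, and 0.77 and 1.63 for FOXO targets.

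Single genes show the same spread of courses. IL32 was at 6.64, 4.58 and 3.82 CPM at 28 days, far below its 7-day level (DTEC minus DTC -5.39 on the log2 scale, adjusted p = 5.3e-10), and BIRC3 at 9.29, 7.68 and 5.17 CPM (-4.59). BOP1 was at 56.6, 69.8 and 98.6 CPM (1.04) and FASN at 284, 393 and 521 CPM (1.52). DEPP1 went further from untreated, to 88.1, 83.9 and 99.5 CPM (1.73), and PIK3IP1 was at 24.6, 23.1 and 28.2 CPM (-0.13).

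The genes that set DTC replicate 1 apart were named by the size of their departure, which is a description. Lowest in it were MIF, a cytokine, at 31.6, 294 and 230.3 CPM over DTC replicates 1 to 3 and 134, 334 and 281 CPM in untreated cells, CCDC85B at 3.95, 31.7 and 31.6 and 12.8, 57.9 and 35.0 CPM, BOLA2, MZT2B, CFD and SCAND1. In all 6 of these genes untreated replicate 1 was also the lowest untreated library. MZT2B, a microtubule-nucleation protein, had a log2 fold change of -1.41 (adjusted p = 0.035) and -0.93 without replicate 1 (adjusted p = 0.087). SCAND1 had 1.22 (adjusted p = 0.041) and 1.68 without replicate 1 (adjusted p = 6.3e-04). The SCAND1 call was lost without any 1 untreated replicate, without DTC replicate 2 or 3, and with the compared libraries alone. That of MZT2B was also lost with total counts, with the upper quartile, and without untreated replicate 2 or 3 or DTC replicate 2. Highest in it were genes with exon lengths of 7910 to 36852 bases: FAT1, an atypical cadherin, at 124, 54.0 and 62.4 CPM and 169, 196 and 202 CPM untreated, DYNC1H1, the dynein heavy chain, at 1567, 809.7 and 763 and 1285, 1403 and 1315 CPM, and LAMA3, SVEP1, ITGA2 and PAG1. ITGA2 was not called with replicate 1 (-0.12, adjusted p = 0.63) and was called lower without it (-0.50, adjusted p = 3.1e-04), as was DYNC1H1 (-0.35, then -0.73).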

How the data were processed

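Polyadenylated RNA of 12 libraries was measured, 3 in each of 4 groups. The deposited values are estimated counts per gene, made by the authors with RSEM (1.3.1) per the submitters' processing notes, which also list Bowtie2 (2.5.2), DESeq2 (1.40.2) and GRCh38 without saying what each was used for. The gene annotation the authors used is not given in the sources used here. Of 62754 identifiers, 58261 were in GENCODE 29 and 42397 had a symbol. The counts were rounded to whole numbers, filtered by group and scaled by TMM, and all 12 libraries were fitted with edgeR (4.0.16, quasi-likelihood, R 4.3.3), with Benjamini-Hochberg adjustment over the 17115 genes tested. Levels are CPM, and log2 values per library use a prior count of 2. A group at or under 3 counts in every library gives a lower bound of fold. The intervals of such floors cover counting error only.

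Members and lists (31 programs, 29 families, 6 marker lists) were chosen with earlier results of these data known. Named by rule were the 10 largest 2-fold rises and falls at a mean of at least 10 CPM with no overlap, 3 called members per program and 1 rising and 1 falling per family at 1 CPM or more, and the 6 highest and 6 lowest genes of DTC replicate 1. Other genes are examples chosen after their values were seen. In simulated data with 16629 genes, 100 were changed by 2-fold and 100 by 4-fold, up and down alike, at 1 CPM or more. The fit of DTC against untreated cells recovered 74% and 99% of them. Far fewer genes changed there than were called here, so these rates describe that setting only. Alternatives were other scalings, other filters, the 6 libraries alone, a replicate block, DESeq2 (1.42.0) and leaving out each library. Sequences are from RefSeq, GRCh38.p14. Some genes are not reported here.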

Additional observations from a re-analysis of the deposited data

Results flagged for a closer look

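Among the genes named by rule for their program, family or size of change, 10 were called on opposite sides of the untreated level at 7 and at 28 days, and in each the direct comparison of the later with the earlier time point passed edgeR's quasi-likelihood test. Both comparisons with untreated cells use the same controls, so the direct difference is the tested value. Over all 17115 tested genes the same 3 calls held for 419 genes that were lower at 7 days and higher at 28 days and for 309 with the opposite course, so these 10 are examples.

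MUC5B, a gel-forming mucin, had a log2 fold change against untreated cells of -6.66 at 7 days and 3.05 at 28 days, a difference of 9.71 (adjusted p = 6.9e-10). DMBT1, a mucosal scavenger receptor, went from -4.38 to 4.18, a difference of 8.56 (adjusted p = 4.2e-09). EMP2, a membrane protein of type 1 alveolar cells, went from -1.90 to 0.72, a difference of 2.63 (adjusted p = 1.4e-10). These are 3 airway or alveolar genes that were low at 7 days and above untreated at 28 days.

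DUSP6, a phosphatase of the ERK kinases, went from -5.04 to 0.52, a difference of 5.55 (adjusted p = 1.2e-11). PADI3 went from -4.59 to 0.59, a difference of 5.18 (adjusted p = 4.4e-10), and TRIB2 from -3.61 to 0.56, a difference of 4.17 (adjusted p = 2.3e-10). RPL3, a ribosomal protein, went from -1.01 to 0.36, a difference of 1.37 (adjusted p = 9.4e-08).

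Of the 10, 3 had the other direction. ID3, an inhibitor of helix-loop-helix factors, went from 2.32 to -0.83, a difference of -3.15 (adjusted p = 1.7e-07). The mitochondrially encoded MT-ND5 went from 1.04 to -0.61, a difference of -1.65 (adjusted p = 7.6e-07), and MT-CO1 from 0.58 to -0.44, a difference of -1.02 (adjusted p = 7.1e-06). Of the 13 mitochondrially encoded genes, 5 met the same 3 calls, and the list's median was 0.34 at 7 days and -0.60 at 28 days. The medians of fatty acid synthesis (-0.68 and 0.24) and NRF2 targets (-0.90 and 0.26) changed sign as well.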

How the results depend on the processing

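Each list was scored under 14 settings in a single direction of call, higher or lower. Of 434 such program counts, 409 stayed within 1.5 times the reported one, as did 396 of 406 family counts. The opposite direction was not scored and could move more. Without DTC replicate 1, members called higher went from 9 to 33 for respiratory subunits and from 0 to 10 for cytosolic ribosomal proteins. With total counts alone, 3702 genes were called lower and 1201 lower by 2-fold (1382 with the upper quartile). Under the same 2 scalings in that order, members called higher were 17 and 16 for cholesterol synthesis and 13 and 12 for mitochondrially encoded genes, and members called lower were 16 and 18 for respiratory subunits, 10 and 13 for cytosolic ribosomal proteins, 3 and 4 for ATF4 targets, 7 and 9 for tRNA synthetases and 6 and 8 for endoplasmic reticulum chaperones. With total counts, members called lower were 7 for fatty acid synthesis, 36 for mitochondrial ribosomal proteins and 5 for Notch genes. Mitochondrially encoded genes called higher were 11 with relative log expression scaling, 11 with a filter of 1 CPM, 11 with DESeq2, and 5 (without untreated replicate 1) to 11 (without DTC replicate 1) with a library left out. Cytosolic ribosomal proteins called lower were 24 with the 1 CPM filter, 24 with the compared libraries alone, and 25 (without untreated replicate 1) to 60 (without DTC replicate 2). All genes called were 10867 to 12323 with a library left out, 10397 with the 1 CPM filter and 10640 with the compared libraries alone. The cause was not tested.

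Of the named genes, 5 changed sign. With a library left out, MIF ranged from -0.87 to 0.11, BOLA2 from -0.64 to 0.24, SVEP1 from -0.12 to 0.51 and ITGA2 from -0.50 to 0.15. With total counts and the upper quartile, BOLA2 had log2 fold changes of 0.074 and 0.021 and ITGA2 of 0.23 and 0.16, and DYNC1H1 had 0.0027 with total counts.

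The labels do not say whether replicate numbers pair the cultures. Deviations of same-numbered untreated and DTC libraries correlated at 0.179, 0.0603 and 0.0958, while untreated replicate 2 correlated best with DTC replicate 3. The correlation of deviation with GC content was negative for replicate 1 in all 4 groups. It was -0.299 untreated, -0.289 in DTC, -0.250 in DTEC and -0.130 in KO2. For replicate 3 it was positive in all (0.0694, 0.282, 0.343 and 0.0420), and replicate 2 was mixed (0.254, 0.131, -0.101 and 0.0870). The cause of this shared pattern was not tested. With a replicate block 11775 genes were called against 11520.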
